A study of Mus musculus with 7 samples.

Results

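Microglia, the resident macrophages of the brain parenchyma, and border macrophages, which line its vessels, meninges and choroid plexus, were described here through 35 genes of 46333 in the count tables. The genes were taken as a list by symbol, and all 35 were found and passed the filter on low counts. They were grouped here into 9 genes taken as largely restricted to microglia within the brain, 20 genes shared by microglia, border macrophages and other myeloid cells, and 6 genes of border macrophages. The libraries were poly(A) RNA sequencing libraries of neurons isolated from whole brain of il4ra fl/fl.Syn cre mice, with 3 cre+ and 4 cre- libraries. Both genotypes carried il4ra fl/fl, in which exons 7 to 9 of the interleukin-4 receptor alpha chain gene are flanked by loxP sites, on a C57Bl/6 background, and the labels give no treatment. The cre+ mice in addition carried Syn cre, a Cre recombinase under the neuronal promoter of synapsin 1, so the deletion is directed at neurons and not at the cells described here. Per the methods the mice were adult females of 10 to 15 weeks, while the description of the sequencing experiment gives littermates of 12 to 16 weeks.

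Microglia arise from yolk sac progenitors, depend on signaling through the CSF1 receptor and survey the tissue with motile processes that respond to ADP and fractalkine. They supply complement C1q, clear debris through TREM2 and its adaptor TYROBP, and keep their identity through transcription factors that include PU.1, IRF8 and SALL1. Border macrophages share much of this myeloid program but carry the mannose receptor MRC1, the hyaluronan receptor LYVE1 and the scavenger receptor CD163 in place of P2RY12 and TMEM119.

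The isolation removed cells with magnetic antibodies against microglia, oligodendrocytes and astrocytes, so microglia were a target of the depletion. Totals were 75707411 to 94376841 counts in cre+ libraries and 68213223 to 89951002 counts in cre- libraries. Il4ra was at 24.4 to 29.5 CPM (counts scaled to a common library size) in cre+ libraries and at 20.03 to 29.6 CPM in cre- libraries. A count over the whole gene hardly sees the loss of a few exons, so it did not check the genotype labels. The 10 neuron markers summed to 1224 to 2309 CPM in cre+ libraries and 2228 to 3600 CPM in cre- libraries, and endothelial markers to 17410 to 24860 CPM and 11520 to 16060 CPM in cre+ and cre- libraries, so the material labelled neurons also held RNA of other cells. Replicate 3 of the cre- libraries was the highest library in 28 of the 35 genes described here, and in the same genes cre- replicates 1 and 4 were the lowest. None of the border macrophage genes was among them. Results are given with and without cre- replicate 3.

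The microglial genes were present in every library, and their level differed far more between the cre- libraries than between the cre+ libraries. Their summed level was 358, 534 and 460 CPM in cre+ replicates 1 to 3. In cre- replicates 1 to 4 it was 133, 378, 880 and 169 CPM. This gave a mean of 450.8 ± 88.2 CPM (SD, n = 3) for cre+ libraries and 389.8 ± 344 CPM (SD, n = 4) for cre- libraries, and the genotypes overlapped. In a bulk library fewer cells of a type and less RNA per cell cannot be told apart.

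Cx3cr1, the fractalkine receptor (chromosome 9, 119877749 to 119898945, minus strand, GRCm39), was at 87.6, 133 and 112 CPM in cre+ libraries, against 20.4, 82.8, 217 and 34.6 CPM in cre- libraries. P2ry12, the ADP receptor that steers microglial processes (chromosome 3, 59123682 to 59170429, minus strand), was at 42.3, 81.5 and 57.9 CPM in cre+ libraries, against 10.0, 46.4, 119 and 15.7 CPM in cre- libraries. Tmem119, a membrane protein that marks microglia (chromosome 5, 113931781 to 113938577, minus strand), was at 44.5, 71.4 and 59.6 CPM in cre+ libraries, against 12.2, 38.4, 114 and 15.8 CPM in cre- libraries. For all 3 genes the 3 cre+ libraries lay between the lowest and the highest cre- library. Per kilobase of transcript these were the highest of the microglial genes, at a mean over libraries of 26.1 CPM per kb for Cx3cr1, 22.6 for Tmem119 and 22.2 for P2ry12.

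**Figure D1:**
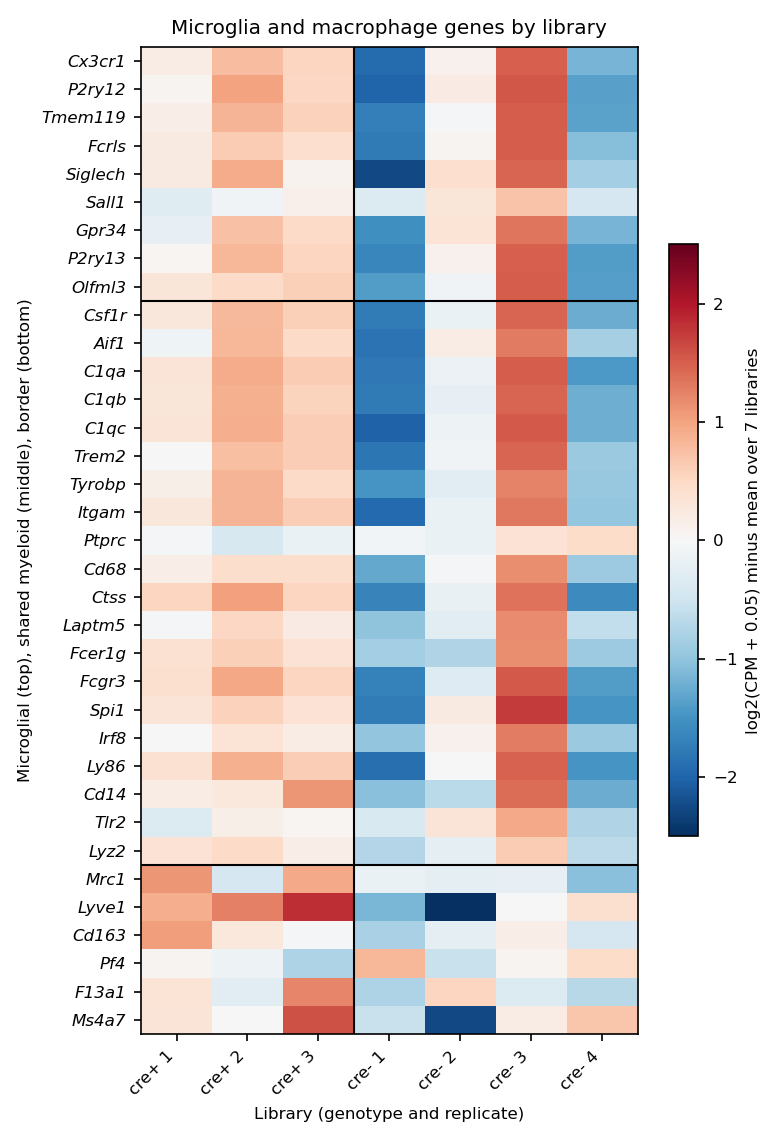
Level of the 35 genes (rows) in the 3 cre+ and 4 cre- libraries (columns), as log2(CPM + 0.05) minus the mean of the gene over the 7 libraries; red is above and blue below that mean. The microglial and shared myeloid rows are reddest in cre- replicate 3 and bluest in cre- replicates 1 and 4, with Ptprc as the exception, and the border macrophage rows do not follow them.

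In edgeR the log2 fold change (cre+ minus cre-) was 0.32 ± 0.69 (SE) for Cx3cr1, 0.34 ± 0.74 for P2ry12 and 0.37 ± 0.69 for Tmem119, with adjusted p of 0.842, 0.844 and 0.814 from the quasi-likelihood F-test. Over the 9 microglial genes the median log2 fold change was 0.28 and 8 values were positive, against a median of -0.04 over all 21542 genes tested. Fcrls, Siglech, Gpr34, P2ry13 and Olfml3, which encode a scavenger receptor, a sialic acid binding lectin, a lysophosphatidylserine receptor, an ADP receptor and a secreted glycoprotein, had log2 fold changes of 0.18 to 0.31. The exception was Sall1, a zinc finger transcription factor, which was at 56.2, 65.5 and 76.0 CPM in cre+ libraries, against 54.7, 86.0, 114 and 52.03 CPM in cre- libraries. It had a log2 fold change of -0.22 ± 0.27 and an adjusted p of 0.713 in edgeR. Its highest cre- library exceeded its lowest by 2.19-fold, the narrowest cre- range of the 9 microglial genes, whose median was 9.38-fold. No microglial gene passed an adjusted p of 0.05 in edgeR or in DESeq2. edgeR called 0 of 21542 genes (0%), while 4305 (20.0%) had an unadjusted p under 0.05, and DESeq2 called 1990 of 16345 genes (12.2%).

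The 20 shared myeloid genes followed the same pattern by library. Their sum was 773, 1095 and 912 CPM in cre+ libraries, against 240, 578, 1654 and 328 CPM in cre- libraries. Per kilobase the highest were C1qa, Ctss and C1qc, at 71.5, 67.7 and 35.9 CPM per kb as means over libraries. C1qa, a chain of complement C1q (chromosome 4, 136623223 to 136626161, minus strand), was at 74.2, 113 and 92.9 CPM in cre+ libraries, against 17.2, 53.6, 171 and 22.0 CPM in cre- libraries. C1qc, from the same cluster (chromosome 4, 136616466 to 136620376, minus strand), was at 63.5, 95.4 and 78.1 CPM in cre+ libraries, against 12.5, 46.8, 147 and 21.8 CPM in cre- libraries. Ctss, the lysosomal protease cathepsin S (chromosome 3, 95433963 to 95463717, plus strand), was at 103.6, 146 and 103.7 CPM in cre+ libraries, against 22.6, 63.3, 184 and 23.9 CPM in cre- libraries. In each of these genes the cre+ libraries again lay inside the range of the cre- libraries, below cre- replicate 3 and above the other cre- libraries.

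The ratios between the complement chains varied far less between libraries than their level. C1qa over C1qb in CPM was 1.20 to 1.27 in cre+ libraries and 1.03 to 1.25 in cre- libraries, and C1qc over C1qb was 1.03 to 1.07 and 0.861 to 1.09 in cre+ and cre- libraries. The level of C1qb itself differed 9.38-fold between the highest and the lowest cre- library and 1.504-fold among cre+ libraries. Tyrobp, the adaptor of TREM2, was at 0.461 to 0.572 of the CPM of Trem2 in cre+ libraries and at 0.439 to 0.645 in cre- libraries. P2ry12 over Tmem119 was 0.951 to 1.14 in cre+ libraries and 0.822 to 1.21 in cre- libraries. Fcgr3 over Fcer1g was less steady, at 1.65 to 2.11 in cre+ libraries and 0.917 to 2.22 in cre- libraries.

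Over the shared myeloid genes the median log2 fold change was 0.48, with 18 of 20 values positive and adjusted p in edgeR of 0.301 to 0.995. Ctss had the highest, 0.68 ± 0.67, with an adjusted p of 0.626 in edgeR. Spi1, which encodes PU.1, and Irf8 had 0.05 ± 0.76 and 0.01 ± 0.52. Lyz2, the lysozyme of macrophages, was at 9.56, 10.4 and 8.36 CPM in cre+ libraries, against 4.47, 6.33, 11.6 and 4.70 CPM in cre- libraries. Its log2 fold change was 0.48 ± 0.34 and its adjusted p in edgeR 0.466. The paralog Lyz1 had 0 counts in every library.

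The proteins of Itgam and Ptprc, CD11b and CD45, are among those the study stained to judge the purity of the isolates. Itgam was at 44.9, 66.4 and 56.3 CPM in cre+ libraries, against 9.47, 32.9, 91.6 and 18.7 CPM in cre- libraries, with a log2 fold change of 0.55 ± 0.64 and an adjusted p of 0.690 in edgeR. It shares 3450 exon bases with a gene model on the same strand, so its counts may be split. Ptprc, which all leukocytes express, was at 37.3, 28.97 and 34.0 CPM in cre+ libraries, against 36.1, 33.9, 48.8 and 52.5 CPM in cre- libraries. Its log2 fold change was -0.36 ± 0.18, the most negative of the shared genes, with an adjusted p of 0.301 in edgeR. Its highest library was cre- replicate 4, 1 of the 2 in which Itgam was lowest.

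Ptprc was the only shared myeloid gene that did not follow the order of the others. Markers of blood leukocytes stood beside it. The 10 lymphocyte markers summed to 33.4, 27.1 and 27.9 CPM in cre+ libraries, against 41.9, 26.7, 46.1 and 57.2 CPM in cre- libraries, highest in the same library as Ptprc. DESeq2 called 0 of the 7 with an adjusted p, against 12.2% of all genes. The monocyte and granulocyte markers summed to 8.69 to 9.43 CPM in cre+ libraries and 12.1 to 17.8 CPM in cre- libraries, and of the 3 that DESeq2 gave an adjusted p it called 1, Ly6c2, lower in cre+ libraries. With 12.2% of all genes called, 1 of 3 is no result about the list. Ngp of that list had 0 counts in every library. The part of these cells in the level of Ptprc and of the other shared genes was not tested.

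**Figure D2:**
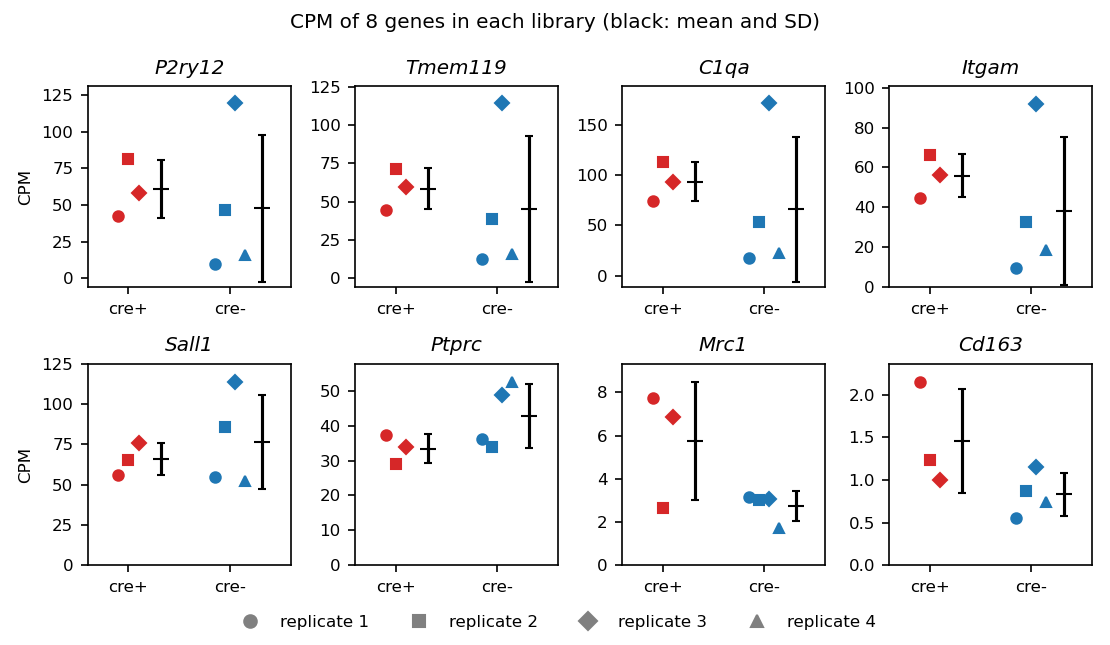
CPM (vertical axes, from 0 where the SD allows) of 8 genes in cre+ libraries (red) and cre- libraries (blue), with marker shapes for the replicate number and the mean and SD in black. P2ry12, Tmem119, C1qa and Itgam repeat the same wide arrangement of the 4 cre- libraries, while those of Cd163 have the same order at 0.556 to 1.15 CPM, and Ptprc and Mrc1 have another.

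The order of the libraries was described after the values had been seen. In 9 of 9 microglial genes and 19 of 20 shared myeloid genes cre- replicate 3 was the highest library and cre- replicates 1 and 4 were the 2 lowest. In the border macrophage genes this order occurred in 0 of 6, and over all tested genes in 223 of 21542 (1.04%). In 28 of the 35 genes cre- replicate 3 was the highest library, against 11.8% of all tested genes. The highest cre- library exceeded the lowest by a median of 9.38-fold over the microglial genes (range 2.19 to 13.3) and 8.71-fold over the shared myeloid genes, against 1.502-fold over all genes. Among cre+ libraries the same ratio had medians of 1.61 for microglial, 1.45 for shared myeloid and 1.44 for all genes. Among the microglial and shared myeloid genes Siglech had the widest cre- range, at 13.3-fold, and Ptprc the narrowest, at 1.55-fold. The border macrophage genes Lyve1 and Ms4a7 had 0 counts in cre- replicate 2, so this ratio is not defined for them.

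The biological coefficient of variation, which edgeR estimates as the relative spread of a gene between libraries of one genotype, had medians of 0.606 for microglial genes, 0.591 for shared myeloid genes and 0.493 for border macrophage genes, against 0.263 for all genes. It was lowest for Ptprc (0.186) and Sall1 (0.260). The microglial genes together held 31711 to 39387 counts in cre+ libraries and 11700 to 63287 counts in cre- libraries.

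Outside the list the same order appeared in further microglial genes. Of 32 such genes, 18 held it. DESeq2 called 1 of the 32, against 12.2% of all genes. This was Entpd1, the ectonucleotidase CD39, with a log2 fold change of 0.44 ± 0.13 and adjusted p of 0.0346 in DESeq2 and 0.129 in edgeR. Cst3, cystatin C, had 0.55 ± 0.27 and an adjusted p of 0.295 in edgeR. Neither Entpd1 nor Cst3 held the order, and the part of other cells in their level was not tested. When the order was required together with a 3-fold gap and a mean of at least 1 CPM, 100 genes met it, of which 25 were among the 35 described here and 12 among the further microglial genes.

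Since 28 of the 35 genes were highest in cre- replicate 3, leaving that library out raises their fold changes by construction, so the values without it are a description and support no difference between genotypes. The median log2 fold change was then 1.26 for microglial, 1.32 for shared myeloid and 1.07 for border macrophage genes, against -0.03 for all genes. In 22 of the 35 genes (4 of 9 microglial, 16 of 20 shared myeloid, 2 of 6 border macrophage) every cre+ library was then above every remaining cre- library, against 10.9% of all tested genes. With all 7 libraries this held for 1 of the 35, Lyve1, against 8.94% of all genes. edgeR called no member without that library, with a lowest adjusted p of 0.216, while DESeq2 called 16, all higher in cre+ libraries, against 3.40% of all genes. These were the microglial genes Tmem119 and Olfml3 and the shared genes Csf1r, C1qa, C1qb, C1qc, Trem2, Tyrobp, Itgam, Ctss, Laptm5, Fcer1g, Fcgr3, Ly86, Cd14 and Lyz2. Their adjusted p in DESeq2 ran from 7.49e-07 for Fcer1g, the gamma chain of Fc receptors, to 0.03995 for Trem2.

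With all 7 libraries DESeq2 called 0 of the 32 members that received an adjusted p. Leaving out cre- replicate 1 or cre- replicate 4 moved the median of the microglial genes to -0.01 in both cases. Why cre- replicate 3 was highest and cre- replicates 1 and 4 were lowest was not tested. The runs of DESeq2 without single libraries were added after the values were seen.

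**Figure D3:**
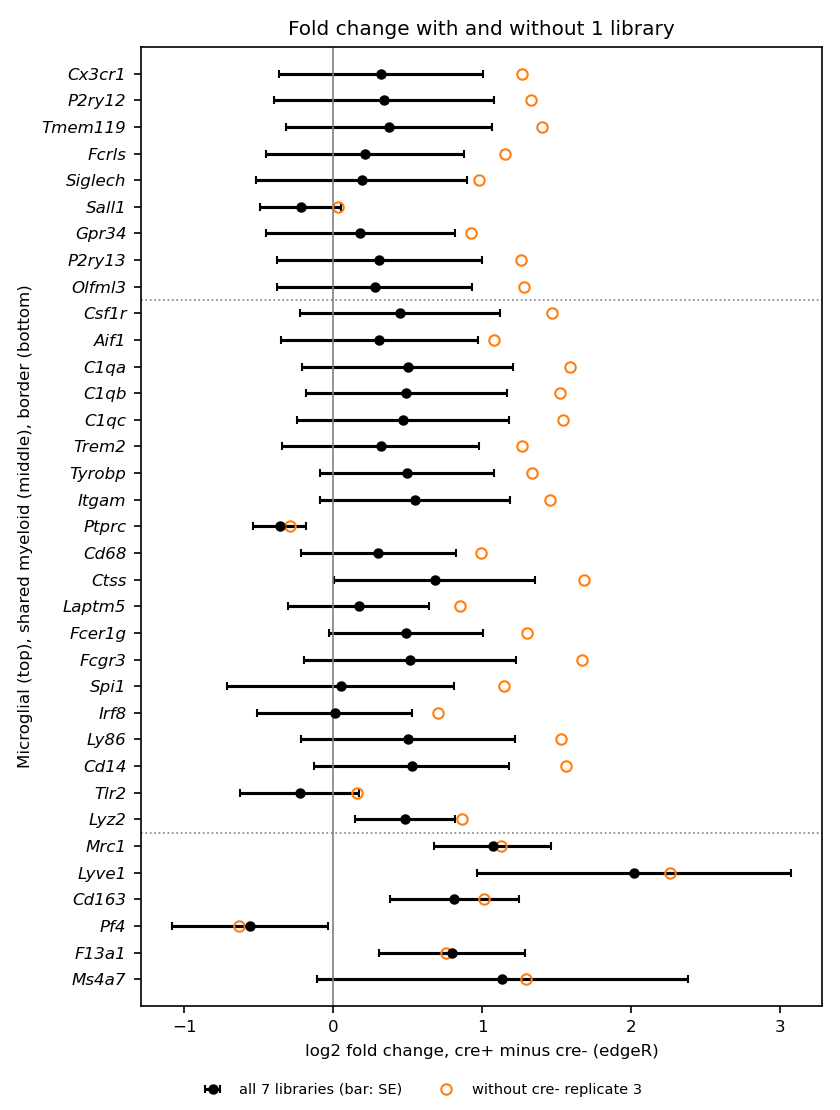
Log2 fold change (horizontal axis, cre+ minus cre-, edgeR) of each of the 35 genes, with all 7 libraries (black, bars are SE) and without cre- replicate 3 (orange). The open circles of the microglial genes have a median of 1.26 against 0.28 with all libraries, and those of the border macrophage genes 1.07 against 0.94.

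The shared myeloid genes were also described relative to the microglial ones, as log2 CPM minus the median log2 CPM of the other microglial genes of the same library, which takes out the common level. The range of a gene over the 7 libraries was then a median of 0.68 on the log2 scale for shared myeloid genes, against 3.11 before, and 0.68 against 3.23 for microglial genes. For the border macrophage genes it was 3.69 relative to the microglial genes, against 2.10 before. The range became smaller in 17 of 20 shared and 8 of 9 microglial genes. It grew in Ptprc (2.85 against 0.856 before), Tlr2 (1.96 against 1.72), Lyz2 (1.92 against 1.37) and Sall1 (2.13 against 1.13). On this relative scale 7 of the 20 shared genes (Csf1r, C1qa, C1qb, C1qc, Ctss, Fcgr3 and Ly86) were higher in every cre+ library than in any cre- library, against 0.116% of all tested genes, most of which do not follow the microglial level. Relative C1qa was 0.87, 1.06 and 0.99 in cre+ libraries, against 0.76, 0.56, 0.79 and 0.49 in cre- libraries. Of these 7, Ctss showed the widest separation of means, at 1.31 in cre+ libraries and 0.86 in cre- libraries. Wider differences of means in the other direction occurred in Ptprc (-1.10) and Tlr2 (-0.85), for which the genotypes overlapped. No shared gene was lower in every cre+ library than in any cre- library. With 2 other definitions of the reference, the mean with and without Sall1, 8 and 4 of all members separated. The 8 include the microglial Cx3cr1. C1qa, C1qb, C1qc and Ly86 separated under all 3 definitions. Csf1r and Ctss did not separate with the mean without Sall1, and Fcgr3 separated only with the median. The measure was built after the values had been seen, and no test was made on it.

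The members were also compared by the sequence before their start sites, since 28 of them shared an order of libraries. RefSeq promoters of 300 bases (250 before and 50 after the start site, table of build GRCm38.p6) were found for 27 members, 34 promoters in all. The PU.1 binding sequence GAGGAAGT was searched on both strands and occurred in 4 of these 34 promoters (11.8%), those of C1qc, Ctss, F13a1 and Pf4, against 3.20% of 32851 promoters. The ETS-IRF composite motif occurred in 1 (Cd68, 2.94%), against 2.72%. The promoters of 2 genes that held the common order with a match (C1qc and Ctss), of 1 such gene without a match (P2ry12), and of 2 border macrophage genes with and without a match (Pf4 and Mrc1) are shown 5′ to 3′ on the strand of the gene. Capitals mark a match, which in all 3 cases lies on the opposite strand and so reads as the reverse complement. Each sequence matched GRCm39 once, at chr4:136620176-136620475 (minus strand) for C1qc, chr3:95433847-95434146 (plus) for Ctss, chr3:59170357-59170656 (minus) for P2ry12, chr5:90920044-90920343 (plus) for Pf4 and chr2:14233975-14234274 (plus) for Mrc1.
C1qc: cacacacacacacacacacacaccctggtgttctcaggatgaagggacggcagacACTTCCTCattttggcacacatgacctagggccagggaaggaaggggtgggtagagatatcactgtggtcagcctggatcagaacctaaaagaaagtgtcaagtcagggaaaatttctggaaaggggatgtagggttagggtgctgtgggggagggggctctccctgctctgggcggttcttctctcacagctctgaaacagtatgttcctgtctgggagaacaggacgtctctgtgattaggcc
Ctss: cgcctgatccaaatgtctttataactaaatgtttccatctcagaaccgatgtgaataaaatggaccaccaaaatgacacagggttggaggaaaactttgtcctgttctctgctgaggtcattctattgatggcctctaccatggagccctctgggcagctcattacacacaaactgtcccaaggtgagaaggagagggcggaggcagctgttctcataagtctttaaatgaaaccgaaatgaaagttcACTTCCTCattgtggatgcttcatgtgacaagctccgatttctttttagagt
P2ry12: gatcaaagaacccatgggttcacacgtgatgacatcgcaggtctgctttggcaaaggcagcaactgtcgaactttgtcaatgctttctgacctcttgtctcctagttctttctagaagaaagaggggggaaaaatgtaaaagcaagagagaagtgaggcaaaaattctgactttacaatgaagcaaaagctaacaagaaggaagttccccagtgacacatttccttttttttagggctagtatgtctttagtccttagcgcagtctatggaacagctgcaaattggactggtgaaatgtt
Pf4: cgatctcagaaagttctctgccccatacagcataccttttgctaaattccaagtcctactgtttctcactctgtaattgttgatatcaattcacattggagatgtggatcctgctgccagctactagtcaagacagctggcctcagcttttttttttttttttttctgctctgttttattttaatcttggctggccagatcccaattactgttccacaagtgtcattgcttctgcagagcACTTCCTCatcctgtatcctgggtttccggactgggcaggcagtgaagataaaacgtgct
Mrc1: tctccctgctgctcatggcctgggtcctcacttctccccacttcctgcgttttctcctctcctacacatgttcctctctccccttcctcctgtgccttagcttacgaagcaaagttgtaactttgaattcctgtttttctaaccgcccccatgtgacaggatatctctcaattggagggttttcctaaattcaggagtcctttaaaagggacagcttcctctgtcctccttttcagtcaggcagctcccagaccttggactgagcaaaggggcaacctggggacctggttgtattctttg
The match begins 195 bases before the start site in C1qc, 2 before it in Ctss and 10 before it in Pf4. A match is a description of the letters and not a binding site, and both C1qc and P2ry12 held the common order of libraries, with and without one.

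The border macrophage genes were low in all libraries and did not share the order of the microglial genes. Their summed level was 13.6, 7.00 and 14.1 CPM in cre+ libraries, against 6.08, 6.47, 6.76 and 5.22 CPM in cre- libraries. The mean was 11.6 ± 3.96 CPM (SD, n = 3) for cre+ libraries and 6.13 ± 0.666 CPM (SD, n = 4) for cre- libraries, and every cre+ library was above every cre- library. Mrc1 was its largest term in every library. In counts the 6 genes together had 516 to 1201 in cre+ libraries and 420 to 544 in cre- libraries, and these raw counts overlap.

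Mrc1, the mannose receptor CD206 (chromosome 2, 14234151 to 14336926, plus strand), was at 7.74, 2.66 and 6.86 CPM in cre+ libraries, against 3.15, 3.03, 3.07 and 1.70 CPM in cre- libraries. Replicates 1 and 3 of the cre+ libraries were above all cre- libraries, and cre+ replicate 2 was among them. Mrc1 had a log2 fold change of 1.07 ± 0.39 and adjusted p of 0.189 (edgeR) and 0.0656 (DESeq2), the lowest of the 35 genes in both, and it was the single member with an unadjusted p under 0.05 in edgeR. Without cre+ replicate 2 DESeq2 called Mrc1 and no other member, against 2.80% of all genes called higher there. That library had the lowest Mrc1 level of the cre+ libraries. Leaving it out therefore raises the fold change by construction, and the call supports no difference between genotypes.

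Lyve1, the hyaluronan receptor (chromosome 7, 110448585 to 110462460, minus strand), was at 0.870, 1.11 and 1.71 CPM in cre+ libraries (77, 82 and 127 counts), against 0.170, 0, 0.445 and 0.597 CPM in cre- libraries (15, 0, 32 and 48 counts). The 0 in cre- replicate 2 allows up to 3 counts, or 0.0357 CPM, by counting error alone. All cre+ libraries were above all cre- libraries. Lyve1 had a log2 fold change of 2.02 ± 1.06 and an edgeR adjusted p of 0.326, and DESeq2 gave no adjusted p at this level. Cd163, the receptor for haemoglobin and haptoglobin (chromosome 6, 124281606 to 124307560, plus strand), was at 2.15, 1.23 and 0.996 CPM in cre+ libraries, against 0.556, 0.868, 1.15 and 0.746 CPM in cre- libraries. Its log2 fold change was 0.81 ± 0.43 and its adjusted p in edgeR 0.334, and cre- replicate 3 lay inside the cre+ range.

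Pf4, the chemokine CXCL4, which platelets also carry, was the border macrophage gene with a negative value, at 0.723, 0.624 and 0.377 CPM in cre+ libraries, against 1.26, 0.452, 0.723 and 0.958 CPM in cre- libraries. Its log2 fold change was -0.56 ± 0.52. The 9 erythrocyte and platelet markers summed, mostly through haemoglobin genes, to 6915 to 36600 CPM in cre+ libraries and 14050 to 58890 CPM in cre- libraries. Of the 8 that DESeq2 gave an adjusted p it called 0, against 12.2% of all genes. Of the platelet markers, Ppbp was highest in the same library as Pf4, cre- replicate 1, while Itga2b and Gp9 were highest in cre- replicate 3 and Gp1ba in cre- replicate 2. The part of platelets in the level of Pf4 was not tested. F13a1, the A chain of coagulation factor XIII, was at 1.84, 1.18 and 3.47 CPM in cre+ libraries, against 0.828, 2.12, 1.14 and 0.883 CPM in cre- libraries, with a log2 fold change of 0.80 ± 0.49. Ms4a7, a membrane protein of the MS4A family, did not exceed 0.673 CPM in any library, and the genotypes overlapped. Per kilobase the highest border macrophage gene, Mrc1, reached 0.735 CPM per kb as a mean over libraries, with Pf4 at 0.489 and F13a1 at 0.414.

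The median log2 fold change of the border macrophage genes was 0.94, and 5 of 6 values were positive. It exceeded that of the microglial genes, 0.28, when all libraries were used, and was below theirs, 1.07 against 1.26, without cre- replicate 3. Set against each other within a library, the mean log2 CPM of the microglial genes exceeded that of the border macrophage genes by 4.67, 5.80 and 4.85 in cre+ libraries and by 4.09, 6.70, 6.65 and 4.20 in cre- libraries. The genotypes overlapped, and the means were 5.11 ± 0.61 (SD, n = 3) in cre+ libraries and 5.41 ± 1.46 (SD, n = 4) in cre- libraries.

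**Figure D4:**
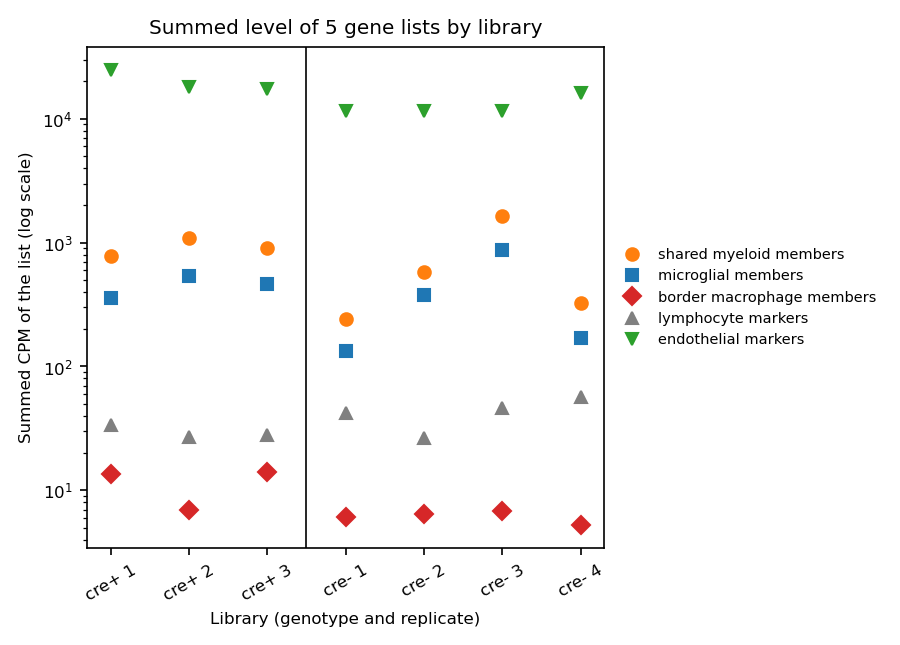
Summed CPM (vertical axis, log scale) of the shared myeloid, microglial and border macrophage genes and of lymphocyte and endothelial markers in each of the 3 cre+ and 4 cre- libraries (horizontal axis). The microglial sum runs over 133 to 880 CPM in cre- libraries, while the border macrophage sum stays at 5.22 to 6.76 CPM there and is at 7.00 to 14.1 CPM in cre+ libraries.

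Markers of the cells that border macrophages live beside were also higher in cre+ libraries. The 10 meningeal fibroblast markers summed to 528 to 1086 CPM in cre+ libraries and 332.5 to 486 CPM in cre- libraries, and DESeq2 called 5 of 9 with an adjusted p higher, with Bgn, a matrix proteoglycan, at a log2 fold change of 1.05 ± 0.20 (adjusted p of 0.000293 in DESeq2). The mural cell markers summed to 614 to 870.0 CPM in cre+ libraries and 409 to 589 CPM in cre- libraries, with 6 of 10 called higher, among them Rgs5 of pericytes at 0.91 ± 0.13. Of the 15 endothelial markers DESeq2 called 12, and of the 10 astrocyte markers 5, all higher in cre+ libraries. The oligodendrocyte markers summed to 763 to 2168 CPM in cre+ libraries and 738 to 1523 CPM in cre- libraries, so the genotypes overlapped. Of these 10 markers 2 were called, Mbp and Mobp, both higher. Over all genes DESeq2 called 12.2%, in either direction. Of the 10 neuron markers it called 4, all lower, with Snap25 at -1.02 ± 0.38. None of these genes was called by edgeR. Their part in the level of the border macrophage genes was not tested.

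A further list of 18 border macrophage genes, several of which vascular or meningeal cells also express, had 17 tested in edgeR and 12 with an adjusted p in DESeq2. DESeq2 called 1 of these 12, against 12.2% of all genes, so the count is no result about the list. This was the scavenger receptor Colec12, which was at 8.997, 9.44 and 9.49 CPM in cre+ libraries, against 4.90, 3.10, 5.26 and 4.42 CPM in cre- libraries. Its log2 fold change was 1.08 ± 0.22, with adjusted p of 0.000272 in DESeq2 and 0.0939 in edgeR. Dab2, an endocytic adaptor, had 0.43 ± 0.18 and an adjusted p of 0.224 in edgeR. The order of the microglial genes occurred in 0 of the 17.

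Genes that microglia raise on activation were described from a list of 20, several of which other brain cells express too. DESeq2 called 3 of the 18 with an adjusted p, a share near the 12.2% of all genes and so no result about the list, and edgeR called 0. Axl, a receptor kinase for apoptotic cells, was at 26.7, 27.8 and 38.3 CPM in cre+ libraries, against 19.9, 16.5, 16.4 and 13.4 CPM in cre- libraries, with a log2 fold change of 0.90 ± 0.18 and adjusted p of 0.000644 in DESeq2. Apoe, which astrocytes express at high level, had 0.78 ± 0.16 with adjusted p of 0.000267 in DESeq2 and 0.0939 in edgeR. Nfkbia, an inhibitor of NF-kB, was the third. The order of the microglial genes occurred in 1 of these 20 genes, so most of the list did not vary between libraries as the microglial genes did.

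Of 12 genes tested in edgeR with which macrophages respond to interleukin-4, 6 received an adjusted p from DESeq2, which called 1, Il13ra1, the partner chain of IL-4R alpha in the type II receptor, with a log2 fold change of 0.87 ± 0.12. Chil3, a chitinase-like protein, had 0 counts in all cre+ libraries, against 0.386, 0.309, 0 and 0.124 CPM in cre- libraries, and its edgeR adjusted p was 0.189, with none from DESeq2. A list of 9 genes held ligands through which neurons and other cells act on microglia, with Sirpa and Cd200r1, the receptors of CD47 and CD200. Of these 9 genes, 8 received an adjusted p from DESeq2. It called Tgfb2 (0.66 ± 0.12) and Tgfb1 (0.69 ± 0.17), both higher in cre+ libraries, with adjusted p of 0.000915 and 0.01005. Over all genes DESeq2 called 12.2%, and with so few genes these calls are no result about the interleukin-4 or the ligand list. The ligands of the CSF1 receptor were not called in either test. Csf1 had a log2 fold change of 0.35 ± 0.19 and Il34 of -0.42 ± 0.28, and the genotypes overlapped for both.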

How the data were processed

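RNA of 3 cre+ and 4 cre- isolates was sequenced, and per the labels and the study's methods the authors used fastp and FastQC on the reads, STAR for alignment to GRCm39, SAMtools to filter and StringTie to count genes. No source used here gives versions or the strand setting. On exon bases shared with an antisense gene, reads of the member therefore cannot be told apart from reads of that gene. With protein-coding genes these are 1461 bases of Csf1r with Hmgxb3 and 294 bases of P2ry12 with Med12l. Long noncoding RNA genes on the opposite strand share 61 (C1qb) to 703 (Aif1) exon bases with further members. These also include Sall1 (678), Lyz2 (534), Trem2 (433), C1qc (247), Laptm5 (191), Olfml3 (124), Cx3cr1 (78) and F13a1 (74). The deposited raw counts were used, with the 49 repeated rows dropped. The deposited normalized signal, the count divided by 1 factor per library, was not tested. Letter codes in the column headers differ between genotypes and no source used here explains them, so a batch behind them cannot be told apart from genotype.

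Counts were tested with edgeR 4.0.16 in R 4.3.3 (quasi-likelihood F-test, TMM, filterByExpr, robust), adjusted by Benjamini-Hochberg over 21542 genes, threshold 0.05. CPM are scaled with TMM factors, SE follow from the F statistic, and CPM per kb use the GENCODE M39 canonical transcript. Alternatives were DESeq2 1.42.0 (genes with at least 1 count), limma-voom 3.58.1, RLE factors, library totals, no filter, a mean of at least 1 CPM, the replicate number as a block, and leaving out each library. Same-numbered libraries deviated with correlations of -0.03, -0.004 and 0.09, and differently numbered ones with -0.111 to 0.16. This gives no sign of pairing by number, but with so few libraries it cannot exclude pairing. The study gives littermates as replicates, so p-values measure the spread between animals.

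Members, their 3 groups and the other lists were chosen with earlier results of these data known. By rule, values in every library are given for members called in either test, the 3 with the highest CPM per kb and the 3 with the smallest p in each group, P2ry12, Tmem119, Cx3cr1, Mrc1, Cd163, Itgam, Ptprc and members without overlap, and up to 2 genes with the smallest p for other lists. Nfkbia, Csf1, Il34, Itga2b and Gp9 were added after their values were seen.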

Additional observations from a re-analysis of the deposited data

Results flagged for a closer look

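Among the 4 cre- libraries a single one lay far from the others in 3 of 38 values checked, while chance alone flags about 1 in 20 groups. Fcer1g and Cd14, a co-receptor for bacterial lipopolysaccharide, were both at 14.5 CPM in cre- replicate 3, and their other cre- libraries lay at 3.43 to 3.83 CPM and 2.28 to 3.41 CPM. Mrc1 was at 1.70 CPM in cre- replicate 4, below 3.03 to 3.15 CPM in the other cre- libraries. The cre+ libraries lay at 8.30 to 9.87 CPM for Fcer1g, 6.22 to 11.9 CPM for Cd14 and 2.66 to 7.74 CPM for Mrc1.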

How the results depend on the processing

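No member was called by edgeR, limma-voom or DESeq2 with all 7 libraries under any planned setting. Over all genes DESeq2 called 1990, against 0 in edgeR. Leaving out 1 library gave 0 to 5 calls in edgeR (5 without cre+ replicate 1) and 755 to 2258 in DESeq2 (1103, 1265 and 2258 without cre+ replicates 1 to 3, and 1681, 755, 919 and 2210 without cre- replicates 1 to 4), with 0 to 16 members called (16 without cre- replicate 3, 1 without cre+ replicate 2). The median log2 fold changes ran from -0.01 to 1.26 for microglial, 0.16 to 1.32 for shared myeloid and 0.66 to 1.26 for border macrophage genes when 1 library was left out, and the microglial minus border macrophage difference from -1.15 to 0.19. With limma-voom the medians were 0.85, 0.86 and 0.92 in the same order of groups. The fit with the replicate number as a block gave 0 calls and medians of 0.50, 0.63 and 0.75.

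Spi1 turned to -0.0902 and Irf8 to -0.12 with library totals, and Irf8 to -0.0084 with a mean of at least 1 CPM. Leaving out 1 library turned the sign of 11 members, with values from -0.0058 to 1.27 for Cx3cr1, -0.10 to 1.16 for Fcrls, -0.16 to 0.98 for Siglech, -0.37 to 0.034 for Sall1, -0.12 to 0.93 for Gpr34, -0.011 to 1.28 for Olfml3, -0.013 to 1.08 for Aif1, -0.061 to 0.85 for Laptm5, -0.28 to 1.15 for Spi1, -0.23 to 0.70 for Irf8 and -0.44 to 0.16 for Tlr2. The other 24 kept theirs. The cause was not tested. The 6 border macrophage genes together had 516 to 1201 counts in cre+ libraries and 420 to 544 in cre- libraries, and what a change of depth would do to them was not tested.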
